A study of Mus musculus with 2 samples.

Results

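Imprinted genes are expressed from the copy inherited from a single parent, and many are controlled by a short CpG-rich region that is methylated on the chromosome from the mother or from the father and unmethylated on the other. In the class examined here the control region is methylated on the maternal chromosome, a mark set in the oocyte and then copied at each cell division by Dnmt1, the maintenance methyltransferase. A region methylated on the maternal chromosome and free of methylation on the paternal chromosome is read at an intermediate level when both are sequenced together. Several of these regions are also the promoter of a long noncoding RNA that silences neighbouring genes on the paternal chromosome.

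The list held 10 genes of the 33924 in the annotation, chosen by name: Peg3, Plagl1, Peg10, Mest, Grb10, Nnat, Kcnq1ot1, Airn, Snrpn and Impact. Methylation of single CpGs was measured by an extended form of RRBS, reduced-representation bisulfite sequencing, in which DNA is cut with restriction enzymes and bisulfite changes unmethylated cytosines before sequencing. Dnmt1+/+ and Dnmt1-/- mouse embryonic fibroblasts (MEFs) were compared, with 1 library each and no replicates. Dnmt1-/- MEFs carried a hypomorphic allele of Dnmt1 on both chromosomes (Dnmt1 n/n), and the Dnmt1+/+ MEFs were the trp53-/- control, so that both lines lacked p53. Both were gifts from another laboratory, untreated and in standard culture. The table gave no expression of fibroblast markers, so the cell type could not be checked in it, and it did not tell maternal from paternal chromosomes, so every value is over both.

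The genes and 5 kb on either side held 605 of the 1790826 CpGs of the table, and these are the CpGs of the 9 genes that the annotation placed. Kcnq1ot1 was placed separately by its promoter sequence and is described on its own. CpGs inside CCGG or TCGA made up 44.4% of the table and read high in both libraries. MspI and TaqI cut at these sites; their use here is inferred from the table and not stated in the sources used here. Levels below are over the 414 other CpGs unless stated. Depth, the number of methylation calls at a CpG, ran from 11 to 166 in the Dnmt1+/+ library, with a median of 46, and from 10 to 240 in the Dnmt1-/- library, with a median of 43.5. A CpG with 0 methylated calls therefore allows a level of up to 6.90% at the Dnmt1-/- median and 30% at the lowest depth. For each CpG the calls of both libraries were set against each other with Fisher's exact test (two-sided), adjusted over the whole table with a threshold of 0.05. It compares the 2 libraries and not the genotypes, and neighbouring CpGs that share reads are not independent.

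Control regions were sought as partly methylated stretches: runs of at least 5 other CpGs, at most 500 bp apart, of which at least 80% lay between 30 and 70% in Dnmt1+/+. The Dnmt1+/+ levels thus chose the stretches and are a description, while the Dnmt1-/- levels played no part in the choice. The rule found 12 stretches in 8 of the genes, with 5 to 57 CpGs over 37 to 1182 bp. Grb10, Nnat, Airn and Impact held a pair each. Peg3 and Kcnq1ot1 held none, having too few measured CpGs. The second stretch of the Airn gene lay at the promoter of Igf2r, the gene that Airn silences, and is called the Igf2r promoter stretch.

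The sequence of the Plagl1 region, from the NCBIM37 build, is shown because it lost nearly all methylation in Dnmt1-/- MEFs. CG in capitals marks a measured CpG outside CCGG and TCGA whose level differed between the libraries by the Fisher's exact test. It is the intronic chr10:12810831-12810910 on the plus strand, all 9 measured CpGs lower.
Plagl1: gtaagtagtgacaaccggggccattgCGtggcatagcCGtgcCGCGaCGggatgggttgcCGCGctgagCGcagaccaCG

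Mean methylation was lower in Dnmt1-/- in 11 of the 12 stretches and higher in the Igf2r promoter stretch alone, whose direction turned with a narrower Dnmt1+/+ range (given with that stretch). The median stretch went from 47.2% in Dnmt1+/+ to 3.02% in Dnmt1-/- MEFs, and the median of the shares of methylation kept by each stretch was 6.26%. The same rule applied to the whole table gave 944 stretches, whose medians were 48.7% and 15.2%, with a median share kept of 31.4%. Weighted by CpG the order turned: the 224 CpGs of the 12 stretches went from 45.4 to 22.1%, keeping 48.7%, or 21.4% without the Igf2r promoter, against 46.3% (48.8 to 22.6%) for the 7593 CpGs of all 944 stretches. All 84319 other CpGs between 30 and 70% in Dnmt1+/+ kept 27.2%. Under 5% was left in 7 of the 12 stretches (58.3%), against 22.1% of all 944. These 7 lay in Plagl1, Peg10, Grb10, Airn and Impact. The other end was formed by Mest at 20.8%, the pair in Nnat at 33.2% and 15.8%, and the Igf2r promoter at 56.7%. The Mest value is for the 6 CpGs of its stretch. CpGs inside its downstream starts, in no stretch, went from 56.9 to 3.57% and from 44.0 to 0.427%, while 3 upstream of those starts read 53.5 and 51.3%. Whether the genes differ from other stretches was not tested.

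**Figure D1:**
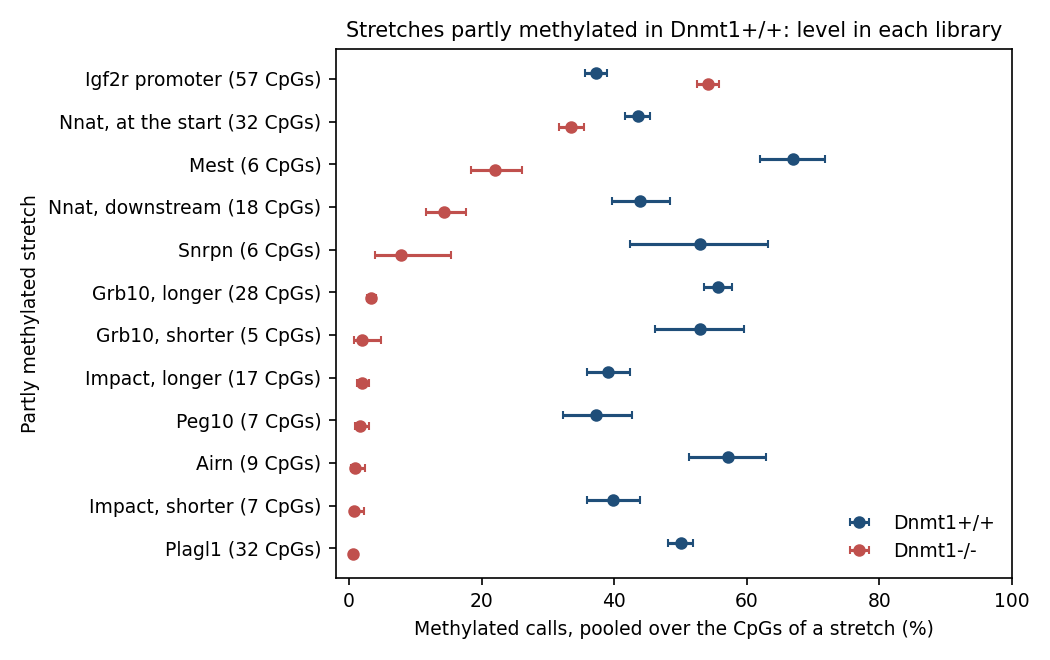
Methylated calls as a percentage of all calls, pooled over the CpGs of each of the 12 partly methylated stretches, in the Dnmt1+/+ library (blue) and the Dnmt1-/- library (red), with 95% Wilson intervals that cover counting error only. All stretches lay lower in Dnmt1-/- but the Igf2r promoter, at 37.2% in Dnmt1+/+ and 54.2% in Dnmt1-/-.

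**Figure D2:**
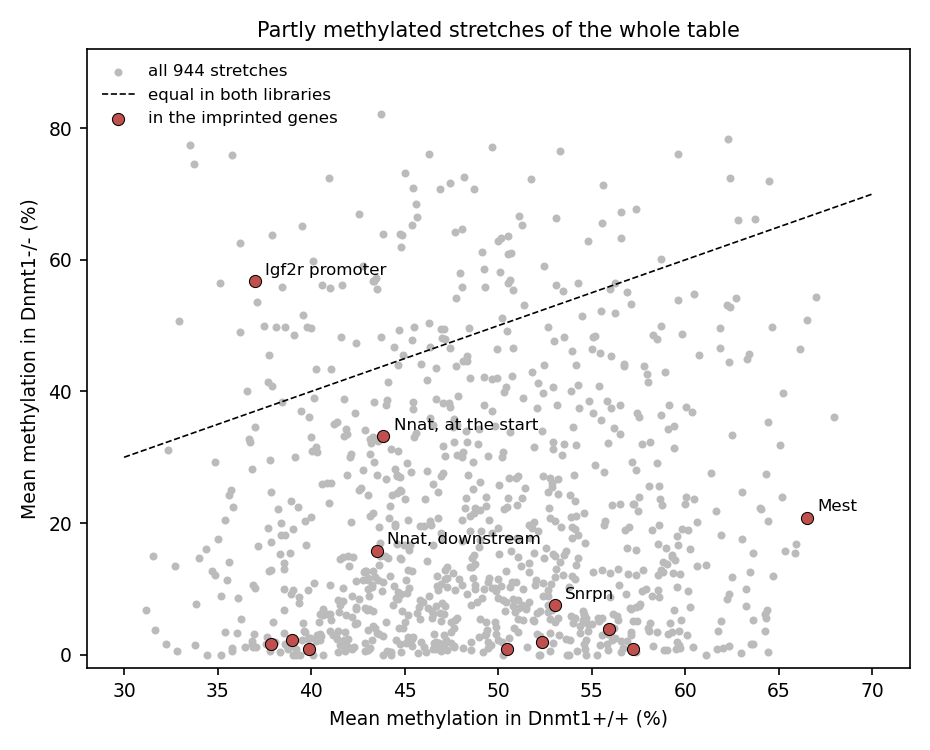
Mean methylation of every partly methylated stretch of the table in Dnmt1+/+ (horizontal axis, percent) and Dnmt1-/- (vertical axis, percent), 944 stretches in grey and the 12 of the imprinted genes in red, with a dashed line of equal levels. Of the red points 7 lie under 5% in Dnmt1-/-, and the Igf2r promoter is the only one above the line.

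Of the 605 CpGs, 321 (53.1%) were called lower in Dnmt1-/-, where 43.7% of all CpGs of the table were. Higher levels were called at 29 CpGs (4.79%), against 0.462% of the table. The other CpGs among them had median depths of 46 and 43.5. Over all CpGs of the table, with those in CCGG or TCGA included, the medians were 29 and 30 calls. More calls make a difference easier to call. The part of depth in these shares was not tested. Over the other CpGs, 240 of 414 (58.0%) were lower and 26 (6.28%) higher, against 44.2% and 0.635% of the other CpGs of the table. All 26 higher calls lay in the Igf2r promoter stretch. In the remaining stretches 135 of 167 CpGs were lower and 0 higher. The table's 84319 other CpGs between 30 and 70% in Dnmt1+/+ were lower in 66.3% and higher in 0.776%.

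Airn and Kcnq1ot1 are the noncoding RNAs of the list, which silence Igf2r with its neighbours and the Kcnq1 cluster on the paternal chromosome. The Airn stretch, 847 bp inside the nearest Airn start, fell from 57.2% ± 2.68 (SD over 9 CpGs) to 0.790% ± 1.19. Every CpG there lay between 54.8 and 61.3% in Dnmt1+/+ and between 0 and 2.56% in Dnmt1-/-, with no overlap. Its highest CpG in Dnmt1-/- had 2.56% of 39 calls, against 54.8% of 31 calls in Dnmt1+/+ (Fisher's exact test, adjusted p = 3.08e-06). Kcnq1ot1 had 4 measured CpGs from 1110 to 1142 bp inside its start. They read 57.1 to 60.5% in Dnmt1+/+ and 0 to 3.51% in Dnmt1-/-, at 42 to 86 and 57 to 114 calls. Most CpGs of both regions had 0 methylated calls in Dnmt1-/-.

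The Igf2r promoter stretch held 57 CpGs, the most of the 944 stretches. Igf2r encodes the receptor that clears Igf2 and carries lysosomal enzymes; in mouse its promoter is methylated on the paternal chromosome, where Airn is transcribed across it, and not in the oocyte. Its mean was 37.0% ± 7.50 (SD over CpGs) in Dnmt1+/+ and 56.7% ± 21.1 in Dnmt1-/-. Pooled calls gave 37.2% (95% Wilson interval 35.6 to 38.9%) of 3321 and 54.2% (52.5 to 55.8%) of 3678. Of its CpGs, 26 were called higher, 6 lower and 25 neither. A rise of 10 points or more was seen in 63 of the 944 stretches (6.67%), and this one ranked at 25 by change. With a Dnmt1+/+ range of 40 to 60% the stretch shrank to 5 CpGs, whose mean was 6.35 points lower in Dnmt1-/-. The 5 CpGs in CCGG or TCGA within it, left out of these values, went from 66.6 to 84.2%, with 3 called higher.

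The change was uneven along the promoter. In Igf2r exon 1, 29 CpGs averaged 32.9% in Dnmt1+/+ and 63.6% in Dnmt1-/-; 28 were above their Dnmt1+/+ level, 20 called higher and 0 lower. The 13 CpGs in intron 1 averaged 41.3% and 57.9%, with 1 called higher. The 15 CpGs upstream of the start had nearly equal means, 41.1% and 42.3%, made of 5 higher and 6 lower calls. All 6 lower calls fell in a run of 9 CpGs from 41 to 98 bp upstream, which went from 42.5 to 24.2%. Next to it, 10 CpGs from 30 bp upstream to 76 bp inside the gene went from 35.2 to 74.0%, with 9 higher. The extremes stood close together: the CpG 59 bp inside the start rose from 35.3 to 93.0% (Fisher's exact test, adjusted p = 1.94e-09) and the CpG 63 bp upstream fell from 32.9 to 5.15% (adjusted p = 1.03e-05).

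**Figure D3:**
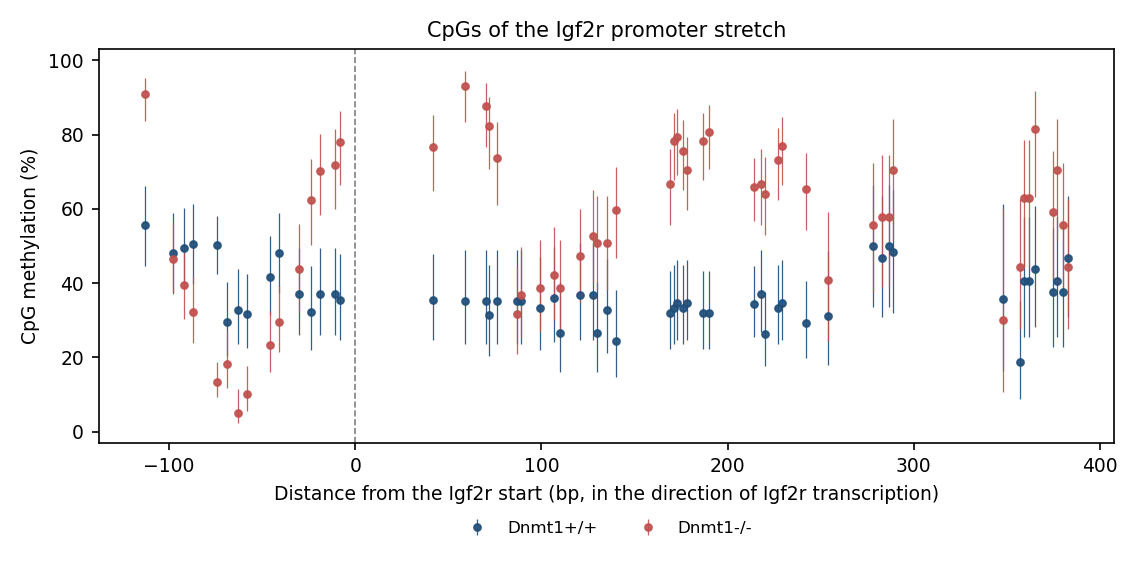
Methylation (percent) of the 57 CpGs of the Igf2r promoter stretch by distance from the Igf2r start in bp, positive into the gene, in Dnmt1+/+ (blue) and Dnmt1-/- (red), with 95% Wilson intervals on calls. Dnmt1+/+ levels ran between 18.8 and 55.7%, while Dnmt1-/- levels spanned 5.15 to 93.0% with a dip 41 to 98 bp upstream of the start.

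Over the Igf2r promoter the SD between CpGs in Dnmt1-/- was 21.1 points against 6.63 for counting alone at these depths, and in Dnmt1+/+ it was 7.50 against 6.80. Chromosome 17 as a whole had 1.06 Dnmt1-/- calls per Dnmt1+/+ call at other CpGs. Autosomes ranged from 0.751 to 1.31 in this ratio, and its part in any level was not tested.

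Plagl1 and Peg3 encode zinc finger proteins, the former a regulator of growth and of other imprinted genes. The Plagl1 stretch, chr10:12810440-12810910, began 57 bp upstream of the annotated start and ran over the first exon into the intron. Its 32 CpGs ranged from 37.7 to 70.7% in Dnmt1+/+ MEFs, in Dnmt1-/- MEFs they lay between 0 and 8.70%, and all 32 were called lower. Of 2687 Dnmt1-/- calls 0.633% were methylated (95% Wilson interval 0.395 to 1.01%). Peg3 had 6 measured CpGs. The 3 that lay 121 to 142 bp inside its start read 58.1 to 64.5% of 62 calls in Dnmt1+/+ and 0 to 2.56% of 78 calls in Dnmt1-/-. The other 3, over 22 kb inside the gene, went from 76.5 to 100% down to 0 to 10% at 17 and 10 calls, and all 6 were called lower.

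Peg10 is a gene derived from a retrotransposon and needed for placental development. Its stretch, chr6:4697418-4697485 in the first exon, fell from 37.9% ± 2.96 (SD over 7 CpGs) to 1.61% ± 0.972, all 7 called lower. Grb10 encodes an adaptor that restrains insulin and growth factor signalling. Its pair of stretches lay 20 bp apart. The shorter, chr11:11925579-11925648 with 5 CpGs, fell from 52.3 to 1.87%. The longer, chr11:11925668-11926849 with 28 CpGs across an alternative start, fell from 55.9% ± 8.36 to 3.84% ± 5.20. Every CpG of both was called lower; the one that kept most, at -473 bp from that start, read 66.7% of 27 calls in Dnmt1+/+ and 25% of 48 in Dnmt1-/- (Fisher's exact test, adjusted p = 0.00194).

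Impact encodes an inhibitor of the kinase Gcn2, which slows translation when amino acids are short. Its stretches lay inside the first kilobases of the gene, 888 to 1217 and 1591 to 1626 bp from the start. The longer, with 17 CpGs, fell from 39.0% ± 1.70 to 2.21% ± 1.71, and the shorter, with 7, from 39.9% ± 1.66 to 0.932% ± 1.16. All 24 CpGs were called lower, and their Dnmt1+/+ levels stayed within 35.3 to 42.9%. Snrpn encodes a splicing protein and its region is the imprinting centre of the Prader-Willi and Angelman domain. The Snrpn stretch, chr7:67149938-67150086, spans the annotated start of a shorter transcript and had only 12 to 17 calls per CpG. Its 6 CpGs went from 53.0% ± 3.92 to 7.53% ± 9.19, with 4 called lower. The other 2, both at 18.8% of 16 calls in Dnmt1-/-, did not pass (Fisher's exact test, adjusted p = 0.102 and 0.128), and at this depth such a fall is hard to call.

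Mest, a gene expressed in mesoderm that encodes a hydrolase-like protein, kept more. Its stretch, chr6:30682787-30683220, lay between -667 and -235 bp of an annotated start and fell from 66.5% ± 13.5 (SD over 6 CpGs) to 20.8% ± 13.6, all 6 called lower. Single CpGs there were left at 3.92 to 44.0%. Further starts lie about 5 kb downstream. There, 4 CpGs at 332 to 503 bp inside the last of these starts went from 56.9 to 3.57%, and 3 at 1198 to 1260 bp from 44.0 to 0.427%, all 7 called lower. Between both places, 4 CpGs at 1824 to 1970 bp inside another start went from 63.3 to 25.9%, with 3 called lower. A further 3 CpGs at -1212 to -1076 bp from the first of those starts read 53.5 and 51.3%, with 0 called by the Fisher test on 47 and 44 calls in all, and single CpGs at 7.14 to 80% in Dnmt1-/-.

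Nnat encodes a small membrane protein of developing neurons and lies in an intron of Blcap. Its first stretch covered the start and the first coding exon. The 32 CpGs averaged 43.9% ± 4.37 in Dnmt1+/+ and 33.2% ± 17.3 in Dnmt1-/-, where counting alone gives an SD of 6.22. Only 12 were called lower, and 20 were not called. CpGs of equal depth close to each other differed: 17 and 24 bp inside the start the level was 59.6% of 178 calls in Dnmt1-/-, and 40 bp inside it was 20.2% of 178 calls, against 49.4, 49.4 and 45.2% of 166 calls in Dnmt1+/+. The lowest CpG, 418 bp inside, fell from 38.5 to 6.50% (Fisher's exact test, adjusted p = 2.33e-09). The highest, 139 bp inside, read 58.1% of 31 calls and 81.0% of 21 calls (Fisher's exact test, adjusted p = 0.239).

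The second Nnat stretch, chr2:157387019-157387539, began 734 bp further on. Its 18 CpGs went from 43.5% ± 8.24 to 15.8% ± 16.0, with 8 called lower. Depth over the 18 was 15 to 51 calls in Dnmt1+/+ and 16 to 51 in Dnmt1-/-. The 3 CpGs from 701 to 733 bp inside a second annotated start read 0% of 43 or 44 calls in Dnmt1-/-, against 48 to 51.0% in Dnmt1+/+. The CpG at 584 bp read 38.1% of 21 calls and 42.9% of 28. Over both stretches Nnat kept 61.6% of its methylation, against 1.38 to 31.3% for the other 7 genes with a stretch, the Igf2r promoter apart.

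**Figure D4:**
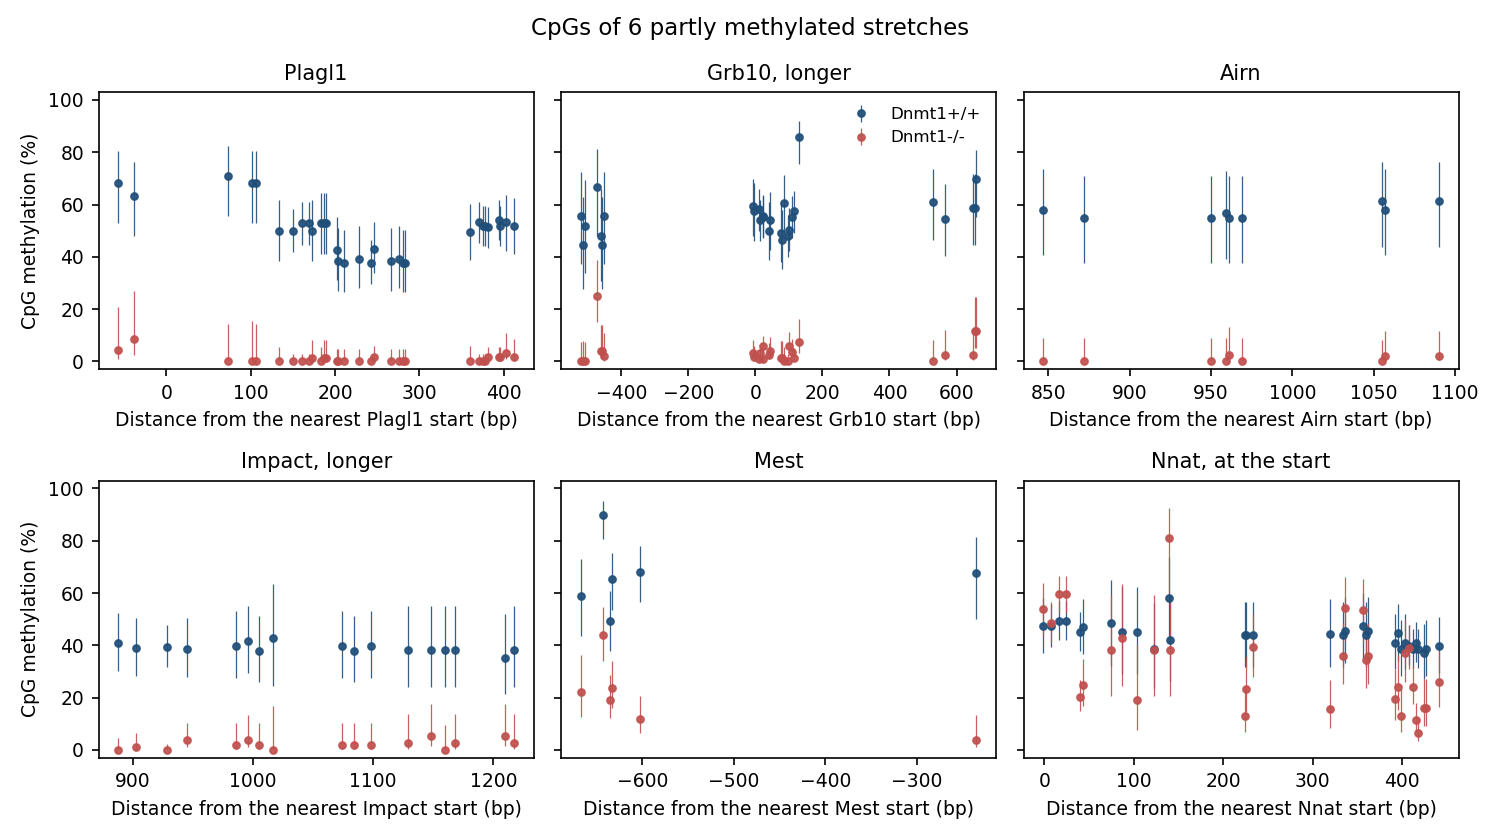
Methylation (percent) of single CpGs in 6 partly methylated stretches by distance in bp from the nearest annotated start of each gene, positive into the gene, in Dnmt1+/+ (blue) and Dnmt1-/- (red), with 95% Wilson intervals on calls. Dnmt1-/- levels lie at or under 8.70% throughout Plagl1, Airn and Impact and spread from 6.50 to 81.0% in Nnat.

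Outside the stretches, the same gene intervals held 190 other CpGs, which averaged 50.3% in Dnmt1+/+ and 18.8% in Dnmt1-/-. The Dnmt1-/- mean depended on the choice of flank CpGs, from 11.2% within 1 kb of a stretch to 37.0% with CCGG and TCGA CpGs kept. Of the 190, 82 were above 70% in Dnmt1+/+, and they went from 91.9 to 34.9%. All 413676 such CpGs of the table went from 92.9 to 30.7%, keeping 33.0%. The Plagl1 interval gave the widest gap: 8 highly methylated CpGs kept 60.9% and stood at 57.9% in Dnmt1-/-, while its stretch kept 1.78%. Impact kept 53.5% at 7 such CpGs and 4.68% in its stretches. Peg10 kept 50.4% at 9 and 4.25% in its stretch. Airn kept 28.7% at 21 and 1.38%, Grb10 30.1% at 11 and 6.39%, and Snrpn 26.7% at 2 and 14.2%. Mest kept about the same, 32.3% at 13 such CpGs and 31.3% in its stretch. The 7 partly methylated CpGs at its downstream starts, which went from 56.9 to 3.57% and from 44.0 to 0.427%, are not part of that stretch and not in this comparison. Nnat went the other way, with 43.0% at 8 such CpGs and 61.6% in its stretches. These differences were not tested, since CpGs of 1 library share reads.

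**Figure D5:**
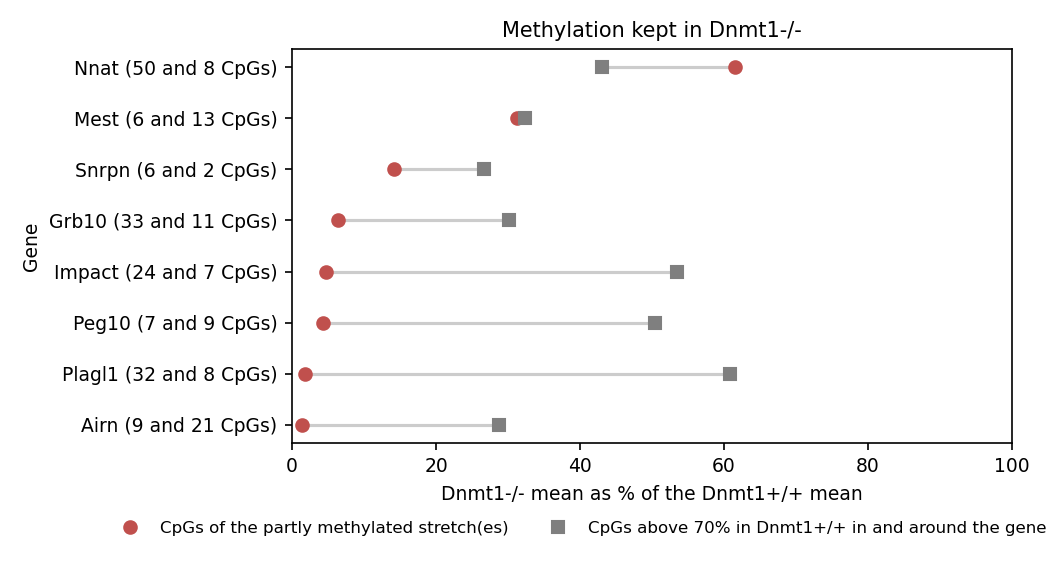
Share of methylation kept in percent (Dnmt1-/- mean divided by Dnmt1+/+ mean) for the CpGs of the partly methylated stretches (red circles) and for CpGs above 70% in Dnmt1+/+ in the same gene interval (grey squares), by gene with the number of CpGs in each. The stretches kept less in 6 genes, about the same in Mest, whose CpGs near the downstream starts are in no stretch, and more in Nnat; the Igf2r promoter is left out of Airn.

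Genes next to the listed ones were read within 1 kb of their starts. Of 17 such neighbours, 12 had at least 5 other CpGs, of which 7 were at least 10 points lower in Dnmt1-/-, 1 (Igf2r) higher and 4 within 10 points, with a median change of -16.4 points. Over the 15194 gene starts of the annotation with as many CpGs, 18.9% were lower and 0.737% higher by that much, with a median change of -1.56 points; many listed neighbours are themselves imprinted, and the difference was not tested. Magel2 and Mkrn3, in the Snrpn domain, went from 63.1 to 4.02% over 13 CpGs and from 43.5 to 0.595% over 14, with 13 and 9 called lower. Ndn, of the same domain, read 26.2 and 4.01% over 6, with 1 called lower. Sgce, which shares its promoter with Peg10 and whose 11 CpGs include those of the Peg10 stretch, read 33.8 and 3.87%, with 7 called lower. In the Kcnq1ot1 domain, Cdkn1c, an inhibitor of cell division, went from 33.3 to 8.38% over 40 CpGs, with 15 called lower. Beside Airn, Slc22a2 fell from 94.3 to 23.4% over 7 CpGs, all called lower, and Slc22a3 read 14.6 and 3.97% over 36, with 11 called lower. Copg2, Ube3a, Kcnq1 and Phlda2 were at 10.1% or less in both libraries. Ddc had 1 CpG, and Usp29, Zim1, Blcap and Slc22a18 had 0.

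The letters TGCCGC are the recognition sequence of ZFP57, a zinc finger protein that binds methylated copies of such regions in the early embryo and protects them from loss. Searched on both strands, TGCCGC stood in 11 of the 12 windows of 500 bp centred on the stretches, 25 times in all. It was present in 26.4% of the 48670 windows of that length with at least 5 other CpGs. The letters themselves hold a CG, and these windows were not matched to the stretches in CpG density, so the 2 shares are not like for like. The most, 4, lay at the longer Grb10 stretch and the first Nnat stretch, and the shorter Grb10 window had 0. The Igf2r promoter window held 1. The stretches themselves held 19, in 9 of the 12; the Plagl1 sequence above has 2. Outside the Igf2r promoter, 14 measured CpGs within TGCCGC went from 51.0 to 15.0%, and the 153 others from 48.1 to 9.90%. Among the 14 were 2 in the first Nnat stretch, which read 45.7 and 46.6%, while the 30 others of that stretch read 43.7 and 32.3%. CpGs within and outside TGCCGC both ranged from 0 to over 50% in Dnmt1-/-, and the letters alone do not say whether ZFP57 binds.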

How the data were processed

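Genomic DNA of Dnmt1+/+ and Dnmt1-/- MEFs, 1 library each, was profiled by extended-coverage RRBS at a sequencing provider, which carried out read processing and mapping. The submitters' processing notes name Bismark and mm9; version and conversion rate are not given in the sources used here. Depth was deposited as the count of methylation calls at each CpG, and the authors kept CpGs with at least 10 in both libraries. The authors' percent values are methylated calls as a share of that depth.

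Percent times depth was a whole number (within 0.001 calls) at 100% of CpGs, and every position lay on a CG of NCBIM37. Groups were the labelled genotypes. Fisher's exact test (two-sided) on the calls of each CpG was adjusted by Benjamini-Hochberg over all 1790826 CpGs at 0.05; no p was taken over regions. The test and the stretch rule were checked on simulated data. Stretches started and ended between 30 and 70% and held no 2 consecutive CpGs outside that range. Means weight CpGs equally, and intervals are 95% Wilson intervals on pooled calls. Intervals and 0-call limits (3 calls) cover counting error only, since PCR reads carried no molecular identifiers; SDs are over CpGs, not replicates. Median depth over the table was 29 and 30 calls.

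Genes came from GENCODE vM1 (NCBIM37) with 5 kb either side. Kcnq1ot1, absent from it, was placed after the data had been seen by an exact match of its RefSeq promoter sequence to NCBIM37 and is not in the counts. Coordinates are 1-based. The sequences of some regions are not reported here. The members and lists were chosen with earlier results of these data known. Named were all members, their stretches, the CpG of each stretch with the lowest and highest Dnmt1-/- level, 17 neighbours and 10 further imprinted genes; single CpGs and runs named beyond these were chosen after their values were seen. The alternatives varied the depth, the CCGG/TCGA filter, pooling, the stretch rule, the flanks, the threshold and the motif window. Tests used scipy 1.17.1 under Python 3.11.15, with numba 0.67.0, pandas 2.3.3 and numpy 2.4.6, and figures matplotlib 3.10.9.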

Additional observations from a re-analysis of the deposited data

How the results depend on the processing

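Over all 12 stretches together the Dnmt1-/- mean was 22.1%, the flanks' mean 18.8% and the share of stretch methylation kept 48.7%; the Igf2r promoter supplied 57 of the 224 CpGs, and without it (chosen after seeing the data) the mean was 10.3% and the share 21.4%. In the same order, these values were 26.9, 37.0 and 54.9% with CCGG and TCGA CpGs kept, 22.9, 17.3 and 50.6% at a depth of at least 20, 20.7, 17.5 and 45.3% with calls pooled, 15.3, 22.0 and 30.1% with a Dnmt1+/+ range of 40 to 60%, 25.8, 16.4 and 58.4% with at least 10 CpGs per stretch, and 20.7, 20.5 and 45.8% with no CpG outside the range. Gaps of up to 1 kb gave a share of 47.2%. Flanks within 1, 2 and 5 kb of a stretch read 11.2, 17.0 and 12.9% in Dnmt1-/-.

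Of 105 changes of single stretches under 10 alternatives, 94 stayed within the half-width of their 95% Wilson interval, 10 moved by more and kept their sign, and 1 reversed: with the 40 to 60% range, the Igf2r promoter stretch shrank to 5 CpGs, which fell by 6.35 points. Under the alternatives the change of the Igf2r promoter stretch ran from -6.35 to 20.7 points. The 105 cover only stretches that an alternative still found. Snrpn was not found at a depth of at least 20. Mest was not found with the 40 to 60% range, gaps of at most 200 bp, at least 10 CpGs per stretch or no CpG outside the range. Thinning each CpG to 10 calls gave 70 lower and 0 higher Fisher calls in place of 321 and 29. At that depth a CpG with 5 methylated calls in Dnmt1+/+ and 0 in Dnmt1-/- has p = 0.0325 by Fisher's exact test, above the largest p called, 0.00548, so thinning cannot judge partly methylated CpGs. Depth limits Snrpn and the second Nnat stretch most. No paired analysis was possible because there was a single library of either genotype, and none could be left out.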

Other observations

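Of 10 further imprinted genes, 6 listed as maternally and 4 as paternally methylated, 6 held stretches under the same rule. H19, whose control region is methylated on the paternal chromosome, went from 42.0% to 0% over 11 CpGs, with 6 called lower. Depth there was only 11 to 20 calls per CpG in Dnmt1+/+ and 12 to 20 in Dnmt1-/-. Zrsr1, an imprinted retrogene with a maternally methylated promoter, went from 46.3 to 4.35% over 28 CpGs, all called lower, and Nap1l5, another retrogene, from 55.7 to 20.3% over 9, with 6 called lower. Slc38a4, an amino acid transporter gene, went from 48.7 to 25.2% over 5 CpGs, with 2 called lower. Inpp5f, Meg3, Dlk1 and Rasgrf1 held no stretch.

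Mcts2, a retrogene within H13, and Gnas, a complex locus encoding a G protein subunit, kept shares close to that of Nnat. Mcts2 went from 44.5 to 28.3% over 30 CpGs and Gnas from 45.9 to 28.3% over 182 CpGs in 9 stretches, so that 63.6 and 61.7% were kept, beside 61.6% at Nnat. Of these CpGs 2 were called lower at Mcts2, 72 at Gnas and 20 of 50 at Nnat. These 3 genes, all on chromosome 2, were the ones that kept over 60% among the 14 listed genes with stretches when the Igf2r promoter stretch inside Airn, which stood at 153% of its Dnmt1+/+ level, is left out; the highest elsewhere was then 51.8% at Slc38a4. The Gnas stretches were uneven, keeping from 15.3 to 90.7%. The 2 at the start of the locus, with 32 and 41 CpGs, kept 58.8 and 82.9%. The 2 that lay 43539 to 44658 bp inside, with 20 and 16, kept 33.8 and 15.3%. The parental copy on which each stretch is methylated was not read, and the 61.7% pools all 9. Over its other CpGs, chromosome 2 kept 34.4%, within the 31.1 to 35.9% of the 19 autosomes, and it had 0.941 Dnmt1-/- calls per Dnmt1+/+ call. Its 88 stretches, 12 of them in the 3 genes, kept a median of 49.5%, and the other 76 kept 48.4%, ranking at 2 either way among autosomes, whose medians ran from 9.40 to 53.0%. The closeness of the 3 pooled shares, which for Gnas depends on which of its stretches are pooled, was seen in these data and no cause was tested.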
